A study of Mus musculus with 23 samples.

Results

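Cadherins and non-clustered protocadherins were followed through mouse oligodendrocyte lineage cells. The group was defined by gene symbol, as every gene named Cdh or Pcdh with a plain number, without Pcdh15 and without the clustered protocadherins. It was chosen with earlier results of these data known. It held 33 of the 35385 gene symbols in the tables, 23 cadherins and 10 protocadherins. RNA had been sequenced from bulk cultures in 8 groups of cells. Oligodendrocyte progenitor cells (OPCs) had been derived from the mouse epiblast stem cell lines EpiSC5 (129SvEv) and 129O1 (129S1/SvImJ), purified by flow cytometry for CD140a and NG2, and expanded. The labels do not say which line each library came from, so the lines could not be told apart here. In a first set, unmodified OPCs and O1-positive oligodendrocytes (OLs) were each purified with magnetic beads (3 libraries each). In the other set, OPCs received a lentiviral CRISPRv2 vector that carried a non-targeting guide (control), SOX6 guide 1 or SOX6 guide 2. After 96 hours of puromycin (500 ng/mL) they stayed for 60 hours in growth medium, which gave 3 control, 2 guide 1 and 3 guide 2 libraries. The same 3 kinds of cells kept for 60 hours in a differentiation-permissive medium without thyroid hormone gave 3 libraries each; these unsorted cultures are called OLs, as on the labels. Control and targeted cells came from the same batch of OPCs, and all groups of the SOX6 set carried the vector and the selection.

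Cadherins are transmembrane proteins that hold neighbouring cells together through calcium-dependent binding of their extracellular repeats. The cytoplasmic tails of classical cadherins bind catenins, which tie the contact to actin. Type I members such as E-cadherin (Cdh1) and N-cadherin (Cdh2) give strong adhesion within a tissue, while type II members are expressed in overlapping combinations across the nervous system and are known for sorting neurons into nuclei and layers. Non-clustered protocadherins have weaker adhesive activity; those of the delta-2 class bind the WAVE complex, which drives actin branching. SOX6 is a transcription factor that keeps oligodendrocyte progenitors from maturing early.

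By known class, the 33 genes were 5 type I and 13 type II classical cadherins, 5 other cadherins, 3 delta-1, 5 delta-2 and 2 other non-clustered protocadherins. Levels within a gene are given as CPM, counts scaled to a common library total by TMM over the 17 libraries of the SOX6 set, and levels of different genes are compared only as TPM, which corrects for transcript length. Changes after targeting are the mean of both guides minus control on the log2 scale with a standard error (SE), from the quasi-likelihood test of edgeR, and a gene was called at an adjusted p under 0.05 over all genes tested. Nothing in the labels shows that the libraries within a group came from different cultures; a p-value here measures the spread among these libraries, and that spread may be technical. In bulk RNA, fewer cells of a type and less RNA per cell cannot be told apart. The OPC and OL libraries of the SOX6 set came as separate tables, so table and stage cannot be told apart.

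The depth of the OPC libraries was 13967438 to 16958611 counts, and that of the OL libraries 13124580 to 18551822. Sox6 transcript, which can persist after its coding sequence is cut, averaged 199.9 CPM in control OPCs and 82 and 76.1 CPM with guides 1 and 2, and 414, 219 and 254 CPM in OLs (adjusted p = 0.00147 and 0.0095). Guide 1 library B of the OLs stood apart on the first principal component of the OL libraries, at 75.3 against -14.8 to -5.03 for the other 8 libraries. Among OPCs, control library A lay apart on the first component (-32.9) and control library C on the second (-35). The 12 myelin markers on a fixed list summed to between 139 and 172 CPM in control OPCs and between 2038 and 2238 CPM in control OLs, and to at most 78.2 TPM in sorted OPCs against at least 26262 TPM in sorted OLs. The unsorted OL cultures also held 14 astrocyte markers at a summed 8246 to 8576 CPM.

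The start regions of 3 type II genes are shown as the 250 bases before the RefSeq transcription start (assembly GRCm38.p6). Cdh8 had the largest change after SOX6 targeting, Cdh20 was called in both stages, and Cdh10 was the only called gene with a matched window that held the core SOX motif. Capitals mark ACAAT or its reverse ATTGT, the core that SOX proteins bind.
Cdh8: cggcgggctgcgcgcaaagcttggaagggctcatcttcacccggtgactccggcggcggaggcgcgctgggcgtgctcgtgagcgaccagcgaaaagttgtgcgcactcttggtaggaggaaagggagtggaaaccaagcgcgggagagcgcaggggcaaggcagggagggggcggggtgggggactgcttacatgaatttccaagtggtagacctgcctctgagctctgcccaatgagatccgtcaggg
Cdh20: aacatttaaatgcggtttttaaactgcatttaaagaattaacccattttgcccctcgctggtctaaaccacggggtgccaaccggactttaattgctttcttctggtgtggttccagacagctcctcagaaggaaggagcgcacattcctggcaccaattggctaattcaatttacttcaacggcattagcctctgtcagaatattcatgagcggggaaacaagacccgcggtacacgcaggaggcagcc
Cdh10: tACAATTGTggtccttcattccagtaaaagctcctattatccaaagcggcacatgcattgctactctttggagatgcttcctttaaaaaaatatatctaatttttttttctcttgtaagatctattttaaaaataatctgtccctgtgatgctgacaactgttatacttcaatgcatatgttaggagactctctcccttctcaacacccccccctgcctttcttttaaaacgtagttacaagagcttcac
The windows lie at chr8:99416472-99416721, minus strand for Cdh8, at chr1:104768270-104768519, plus strand for Cdh20 and at chr15:18820079-18820328, plus strand for Cdh10. The Cdh10 window lies inside the span that GENCODE M21 gives this gene, which starts at position 18818947. The GC content of the windows was 64.4%, 47.6% and 36.8%. In Cdh10 the overlapping copies on both strands make the run ACAATTGT, 1 base from the far end of the window, and in the other 2 no copy was found.

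RefSeq windows of this kind (these 250 bases plus 50 after the start) were matched for 21 of the 33 genes, in 24 windows. Both strands were searched. The longer SOX motif ACAATGG was in 0 of the 24 windows, against 3.02% of all 32851 windows. ACAAAGG was in 2 of 24, those of Pcdh18 and Pcdh8, against 5.08% of all. The core ACAAT was in 2 of 24, those of Cdh10 and Pcdh8, against 27.7% of all. The E-box CAGGTG, known from repression of Cdh1 by SNAI and ZEB factors, was in 2 of 24, both belonging to Cdh7, against 17.2%. A match describes letters in a window and is not a binding site. The genes that reached 1 TPM in at least 1 library had a median GC of 63.4% in these windows (n = 14) and those below 1 TPM throughout 48% (n = 7), beside 52.4% for all windows.

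Oligodendrocyte lineage cells expressed a mixed part of this family. In the joint data of the SOX6 set 21 of the 33 genes passed the low-count filter, beside 14352 of all 35385 gene symbols. Between 12 and 15 of the 33 genes had a mean of at least 1 TPM in a group. N-cadherin (Cdh2) had the highest level in every OPC group, with 63.4, 60.6 and 62.8 TPM in control OPCs and 44.6, 47.3 and 51.5 TPM in sorted OPCs. T-cadherin (Cdh13), a GPI-anchored member without a cytoplasmic tail, followed at 38.9, 45.3 and 51.3 TPM in control OPCs. Next came Cdh20 at 31.2, 35.4 and 38.3 TPM, and its range did not overlap that of Cdh10 at 23.6, 23.7 and 24.8 TPM. Pcdh1, Pcdh10 and Pcdh7 had means of 23.8, 22.8 and 19.4 TPM in the same cells, with ranges that overlapped between neighbours in that order; that of Pcdh7 lay below Cdh10.

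The order was different in OLs. In control OLs the 5 highest means were 43.4 TPM for Pcdh10, 41.2 for Cdh13, 38.9 for Cdh20, 37 for Cdh2 and 35.7 for Cdh11, and the libraries of these neighbours overlapped. In sorted OLs Pcdh7 was highest at 84.5, 90.2 and 101 TPM, above Cdh20 at 64.4, 79 and 78.6 TPM with no overlap. Cdh11 followed at 45.8, 50.8 and 42 TPM. With either SOX6 guide, Cdh20 had the highest mean of the family in OLs, at 51 and 58.8 TPM, although guide 1 library B (37.4 TPM) lay just under the control range of 38.5 to 39.4 TPM.

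Summed over all 33 genes, the family made up 269 TPM (range 245 to 292) at the median of control OPCs, against 305 to 332 TPM over the 5 targeted OPC libraries. Type II cadherins carried much of that: 78.5 to 91.4 TPM in control OPCs, 114 to 115 TPM with guide 1 and 103 to 105 TPM with guide 2. In OLs the type II sum was 121 to 129 TPM in controls and 131 to 188 TPM in the targeted libraries, of which guide 1 library B was the lowest. The type II range of the targeted libraries did not overlap that of the controls in either stage. Type I cadherins did not separate in this way, with 62 to 66.5 TPM in control OPCs and 62.9 to 72.5 TPM in targeted OPCs.

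**Figure D1:**
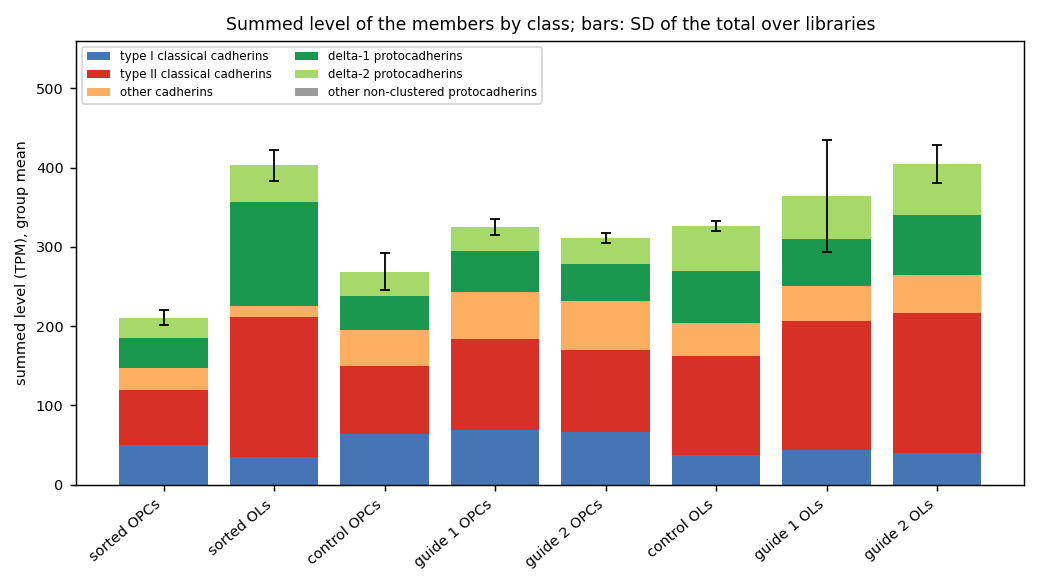
Stacked bars give the mean summed level in TPM of the genes of each class (colours) in each of the 8 groups, and the black bars are the SD of the total over libraries. The total was lowest in sorted OPCs (mean 210.7 TPM) and near 403 to 405 TPM in sorted OLs and guide 2 OLs; the wide bar of guide 1 OLs (SD 70.1 TPM) includes library B.

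Another part of the family was close to silent. Cdh7 and Cdh9 had 0 counts in all 17 libraries and 0 TPM in the sorted cells. In the SOX6 set, 3 counts correspond to 0.229 CPM in the smallest library and 0.162 CPM in the largest, and this is the limit that a count of 0 allows, for counting error only. Cdh3, Cdh12, Cdh15, Cdh16, Cdh17, Cdh18 and Pcdh12 had at most 4 counts in any library, E-cadherin (Cdh1) at most 7.3 and Cdh26 at most 8. VE-cadherin (Cdh5), the cadherin of endothelial contacts, had 13, 6 and 3 counts in control OPCs and at most 2 in any OL library. The 9 endothelial markers on a fixed list summed to between 7.77 and 12.3 CPM in the SOX6 set, led by Vwf (at most 7.07 CPM) and Kdr (at most 7.05 CPM), with Cldn5 at most 0.0714 CPM. The 8 epithelial markers summed to at most 3.6 CPM.

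The 12 genes below the low-count filter in the OPC, the OL and the joint data of the SOX6 set were Cdh1, Cdh3, Cdh5, Cdh7, Cdh9, Cdh12, Cdh15, Cdh16, Cdh17, Cdh18, Cdh26 and Pcdh12. Cdh5 passed the filter when guide 1 library A or B of the OPCs was left out, which leaves 1 library in that group. It then passed only through OPC control library A (13 counts). Its lower fitted level in control OLs than in control OPCs (log2 -3.35) was thus fixed by the filter and adds nothing. Of the 8 transcription factors on a list of Cdh1 repressors, Zeb2 rose from control OPCs to control OLs (62.2 to 144 CPM, log2 1.21), Tcf3 fell there (188 to 112 CPM, log2 -0.74), and 0 of the 5 tested were called after SOX6 targeting by edgeR or DESeq2 in either stage, with 0 in OPCs and 1 in OLs at an unadjusted p under 0.05.

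After SOX6 targeting 6 of 8 tested type II cadherins rose in OLs and 2 of 8 in OPCs, and edgeR called no member lower when each stage was fitted alone. With both stages in 1 fit, Pcdh20 was called lower in OLs, on few counts and after passing the filter only through control libraries. In OPCs, 19 of the 33 genes passed the low-count filter and 3 of them were called, all higher: Cdh20, Cdh13 and Cdh8. Over all 13358 genes tested, 3.59% were called and 1.95% were called higher. In OLs, 18 passed the filter and 7 were called, all higher: Cdh8, Cdh11, Cdh20, Cdh10, Cdh24, Cdh6 and Pcdh10. The background there was 6.5% called and 3.13% called higher, of 13447 genes. The median log2 change of the tested members was 0.06 in OPCs and 0.25 in OLs, beside -0.0049 and -0.00078 over all genes tested. DESeq2 called 6 members in OPCs (background 6.11%). Fits without either OPC guide 1 library kept 1 library in that group and are not counted here. Leaving out 1 other OPC library gave 2 calls without control library B (1.39% of all genes called) or guide 2 library A (1.87%). It gave 3 without control library A (2.75%) or guide 2 library B (2.06%) or C (2.09%), and 5 without control library C (4.15%). In OLs it gave 3 calls without control library B (2.56% of all genes called) or guide 2 library A (3.73%) or C (3.97%). It gave 4 without control library A (2.7%) or C (2.94%), or guide 1 library A (5.33%) or C (5.33%). It gave 5 without guide 2 library B (4.59%) and 9 without guide 1 library B (16.9%).

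The separation of single libraries was counted as well. In OPCs every targeted library was above every control library for 6 of 19 genes, against 5.49% of all genes, and below for 2 of 19 (Cdh19 and Cdh24), against 6.23%. In OLs this was so for 7 of 18 genes, the same 7 as were called, against 8.83%, and below for 1 of 18 (Pcdh17), against 8.64%. These counts are for CPM and depend on the unit. In TPM the control and targeted OL libraries overlapped for every called gene except Cdh8. In OPCs those of Cdh24 and Pcdh7 overlapped in TPM.

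**Figure D2:**
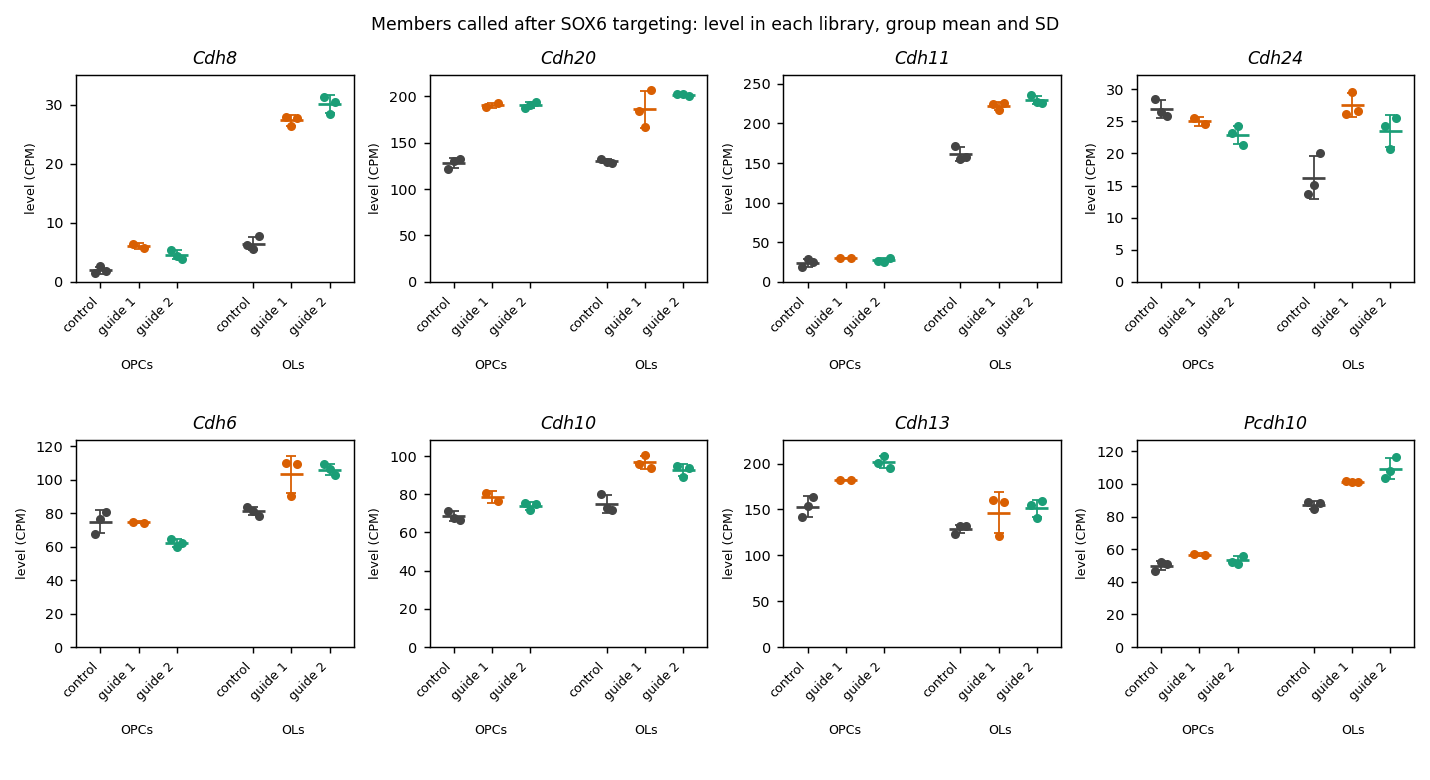
Each panel is 1 gene called in OPCs or OLs after SOX6 targeting; the vertical axis is its level in CPM from 0, points are libraries, and horizontal lines with bars are the group mean and SD. Cdh8 and Cdh20 were higher with both guides in both stages, while Cdh11, Cdh24 and Cdh6 separated from control in OLs, where for Cdh8 all 6 targeted libraries sat between 26.3 and 31.4 CPM and the 3 controls between 5.55 and 7.71 CPM.

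Cdh8 is a type II cadherin known for its patterned expression in cortex and at synapses of the hippocampus. It had 1.44, 2.62 and 1.91 CPM in control OPC libraries A to C, 6.41 and 5.77 CPM with guide 1 and 5.46, 4.43 and 3.89 CPM with guide 2. In OLs it had 6.21, 5.55 and 7.71 CPM in controls, 27.9, 26.3 and 27.8 CPM with guide 1 and 31.4, 28.5 and 30.5 CPM with guide 2. Controls and targeted libraries did not overlap in either stage, and in OLs they were far apart. Cdh8 rose 2.68-fold in OPCs (log2 1.42, SE 0.25, adjusted p = 0.0204) and 4.42-fold in OLs (log2 2.14, SE 0.13, adjusted p = 3.31e-05). The OPC value rests on 20.1 to 42 counts in the controls, and its call was lost without guide 1 library A, guide 1 library B or guide 2 library A, and without control libraries A and C together (adjusted p up to 0.225). The OL call held in all 15 alternatives, from 2.04 to 2.29. Cdh8 spans 392 kb on the minus strand of chromosome 8 (GRCm38, positions 99024471 to 99416471), and an exon of Gm15679 overlaps its exons on the opposite strand; because the library kit kept no strand, reads of this pair cannot be told apart.

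Cdh20 is a type II cadherin known from the developing neural tube and brain. It had 122, 129.8 and 132 CPM in control OPCs, 189 and 192 CPM with guide 1 and 187, 191 and 194 CPM with guide 2. Control OLs had 132, 129 and 128 CPM, against 184, 167 and 207 CPM with guide 1 and 203, 202 and 201 CPM with guide 2. In CPM every targeted library was above every control in both stages; in TPM guide 1 library B of the OLs was not, as given above. Cdh20 rose 1.51-fold in OPCs (log2 0.60, SE 0.047, adjusted p = 0.000737) and 1.49-fold in OLs (log2 0.57, SE 0.078, adjusted p = 0.00293). The difference between the stage responses was 0.00 log2 (SE 0.085) and was not called. Of the 3 OPC calls, Cdh20 was the only one kept in all 15 alternatives, and its OL call was kept in all 15 as well.

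Cdh11 (OB-cadherin) is known from mesenchymal and bone-forming cells. Control OLs had 172, 155 and 158 CPM, guide 1 libraries 224, 216 and 226 CPM and guide 2 libraries 236, 227 and 226 CPM, with no overlap. This was a 1.4-fold rise (log2 0.48, SE 0.063, adjusted p = 0.00254), kept in all 15 alternatives. In TPM the lowest targeted OL library (37.5) lay below the highest control (38.2). In OPCs the level was low in every group, at 18.3, 28.7 and 25 CPM in controls and 24.9 to 29.9 CPM in targeted libraries, and the ranges overlapped (log2 0.26, adjusted p = 0.41).

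Cdh10 is a type II cadherin of brain endothelium and neurons. Control OLs had 80.3, 73.1 and 71.7 CPM, against 95.8, 101 and 93.9 CPM with guide 1 and 94.9, 89.3 and 94 CPM with guide 2, a 1.26-fold rise (log2 0.33, SE 0.067, adjusted p = 0.0205). In OPCs it went from 71.3, 67.5 and 66.4 CPM to 80.9 and 76.4 CPM with guide 1 and 75.6, 71.6 and 74.9 CPM with guide 2. In CPM control and targeted libraries did not overlap in either stage. In TPM those of OLs did, with the lowest targeted library at 29.5 and the highest control at 31. The OPC change of 0.18 log2 (SE 0.048) was not called by edgeR (adjusted p = 0.0914). The OL call was lost with library totals as the scaling and without control library B or C or guide 2 library A or C (adjusted p up to 0.136).

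Cdh24 is a type II cadherin with a short gene, 10.1 kb. It had 13.6, 15.1 and 20 CPM in control OLs, 26.2, 29.6 and 26.7 CPM with guide 1 and 24.3, 20.7 and 25.6 CPM with guide 2. Every targeted OL library was above every control, with the nearest pair at 20.7 and 20 CPM (log2 0.65, SE 0.14, adjusted p = 0.0282). In OPCs the order was the other way round, with 28.5, 26.5 and 25.8 CPM in controls, 25.5 and 24.5 CPM with guide 1 and 23.1, 24.2 and 21.4 CPM with guide 2. That difference of -0.15 log2 (SE 0.071) was not called (adjusted p = 0.352). The OL call was lost in 6 of the 15 alternatives, namely without control library A or B, guide 1 library A or C, or guide 2 library A or C (adjusted p up to 0.151). In TPM control and targeted libraries overlapped in both stages. In OLs the lowest targeted library was at 6.68 TPM and the highest control at 7.06 TPM.

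Cdh6 (K-cadherin) is a type II cadherin of kidney and of the neural crest. Its OL libraries had 83.5, 81.3 and 78.6 CPM in controls, 109.8, 90.5 and 109 CPM with guide 1 and 109, 106 and 103 CPM with guide 2, without overlap (log2 0.36, SE 0.083, adjusted p = 0.0342). In OPCs it had 67.4, 76.6 and 80.7 CPM in controls, 74.9 and 74.1 CPM with guide 1 and 64.9, 59.9 and 62 CPM with guide 2, so that guide 2 lay below the controls and guide 1 within them. The OL call was kept in 4 of 15 alternatives and was lost on leaving out any library other than guide 1 library B (adjusted p up to 0.172). It was also lost with library totals, without a filter and with a transcript length offset. In TPM the lowest targeted OL library (9.61) lay below the highest control (11.9).

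Cdh13 was the 1 gene outside the classical classes that was called in OPCs. It had 142, 153 and 164 CPM in control OPCs, 183 and 182 CPM with guide 1 and 201, 209 and 195 CPM with guide 2, with no overlap (log2 0.35, SE 0.057, adjusted p = 0.0161). In OLs the controls had 124, 132 and 132 CPM, guide 1 161, 121 and 158 CPM and guide 2 155, 141 and 159 CPM. Only library B of guide 1 lay below the controls, and the change of 0.21 log2 was not called (adjusted p = 0.325); without that library it was 0.26 and called (adjusted p = 0.00496). The OPC call was lost without control library B or either guide 1 library, and in a joint fit of both stages (adjusted p up to 0.0828).

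Pcdh10 (OL-protocadherin) is a delta-2 protocadherin that recruits the WAVE complex to cell contacts. OL libraries had 89, 84.5 and 88.5 CPM in controls, 102, 101 and 101 CPM with guide 1 and 104, 108 and 116 CPM with guide 2. In CPM the groups did not overlap, and the rise was 20.2% (log2 0.27, SE 0.064, adjusted p = 0.0425). In TPM they overlapped, with means of 43.4 in controls, 43.2 with guide 1 and 51.1 with guide 2. The Pcdh10 call was kept in 4 of 15 alternatives and was lost on leaving out any library other than guide 1 library B (adjusted p up to 0.425). It was also lost with library totals, without a filter and with a transcript length offset. Exons of 1700027H10Rik overlap the exons of Pcdh10 on the opposite strand. In OPCs it had 46.8, 52 and 50.7 CPM in controls and 51.1 to 57.2 CPM in targeted libraries, and was not called (log2 0.16, adjusted p = 0.214).

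The remaining genes were not called by edgeR in the fit of each stage with all its libraries. N-cadherin, the most abundant member in OPCs, had 233, 209 and 204 CPM in control OPCs and 210.2 to 239 CPM in targeted ones (log2 0.06, SE 0.061, adjusted p = 0.681). In OLs it had 126, 113 and 109 CPM in controls, 140.5, 185 and 125 CPM with guide 1 and 129, 125 and 124 CPM with guide 2 (log2 0.24, adjusted p = 0.312). The high guide 1 value is that of library B. Pcdh19, a delta-2 protocadherin mutated in an X-linked epilepsy, had 40.5, 37.6 and 42.9 CPM in control OPCs and 52 and 47.1 CPM with guide 1 and 45.2, 47.4 and 47.5 CPM with guide 2. These did not overlap, and the change was just outside the threshold (log2 0.28, SE 0.065, adjusted p = 0.058). Pcdh7, a delta-1 protocadherin, likewise had 109.6, 114 and 119.8 CPM in controls, 134 and 134 CPM with guide 1 and 121, 129 and 119.9 CPM with guide 2 (log2 0.19, SE 0.051, adjusted p = 0.0919), with the nearest control and targeted libraries at 119.8 and 119.9 CPM. In OPCs DESeq2 called both Pcdh19 and Pcdh7 higher (adjusted p = 0.0337 and 0.0339), as did edgeR without control library C (adjusted p = 0.0379 and 0.0465). In OLs edgeR called Pcdh7 higher without guide 1 library B (log2 0.19, adjusted p = 0.00944). On the opposite strand, exons of 4932441J04Rik overlap those of Pcdh7, exons of Gm26851 those of Pcdh19 and exons of Gm9748 those of Pcdh8. As for Cdh8, reads of these pairs cannot be told apart.

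Cdh19, a cadherin known from the Schwann cell lineage, had lower counts in every targeted OPC library than in any control. Its OPC counts were 33, 42 and 37 in controls, 20 and 6 with guide 1 and 22, 11 and 8 with guide 2, with no overlap in CPM. The edgeR test on these low counts did not call it (log2 -1.62, SE 0.44, adjusted p = 0.093), while DESeq2 called it lower (log2 -1.63, adjusted p = 0.0337). In OLs its CPM were 3.89, 2.84 and 2.09 in controls and 1.22 to 2.96 in targeted libraries, which overlap. Pcdh17, a delta-2 protocadherin known from axon growth, had 9.74, 9.89 and 10.2 CPM in control OLs, 7.87, 5.45 and 8.42 CPM with guide 1 and 7.22, 8.76 and 7.45 CPM with guide 2, all lower, and was not called (log2 -0.41, adjusted p = 0.247).

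Some members were tested at low levels. Cdh22, a type II cadherin of the brain, had counts of 4.66, 5.76 and 0 in control OLs, 46.4, 15.6 and 50.4 with guide 1 and 6.59, 0 and 0 with guide 2. Guide 2 minus guide 1 was -4.23 log2 (SE 1.24), unadjusted p = 0.00811, from edgeR, and did not pass the adjustment (adjusted p = 0.692). In the SOX6 set Pcdh18 ranged from 0 to 7.2 CPM, Pcdh8 from 0 to 5.14, Cdh4 from 0 to 1.26, Cdh23 from 0 to 0.999, Pcdh9 from 0.422 to 3.03 and Pcdh20 from 0 to 0.756. Pcdh20, a protocadherin outside the delta classes here, had 10, 12 and 7 counts in control OLs, 0, 0 and 1 with guide 1 and 1, 3 and 6 with guide 2, so that all targeted libraries were below the controls. In the OL data alone it did not pass the filter. With both stages fitted together edgeR called it lower in targeted OLs (log2 -2.98, SE 0.85, adjusted p = 0.0385). It passed that joint filter only through control libraries, where it was high, so this direction was fixed by the filter and the call adds nothing. Pcdh1 was even in OPCs, from 86.5 to 96.1 CPM, and in OLs ranged from 72.4 to 127 CPM, with guide 1 library B lowest.

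**Figure D3:**
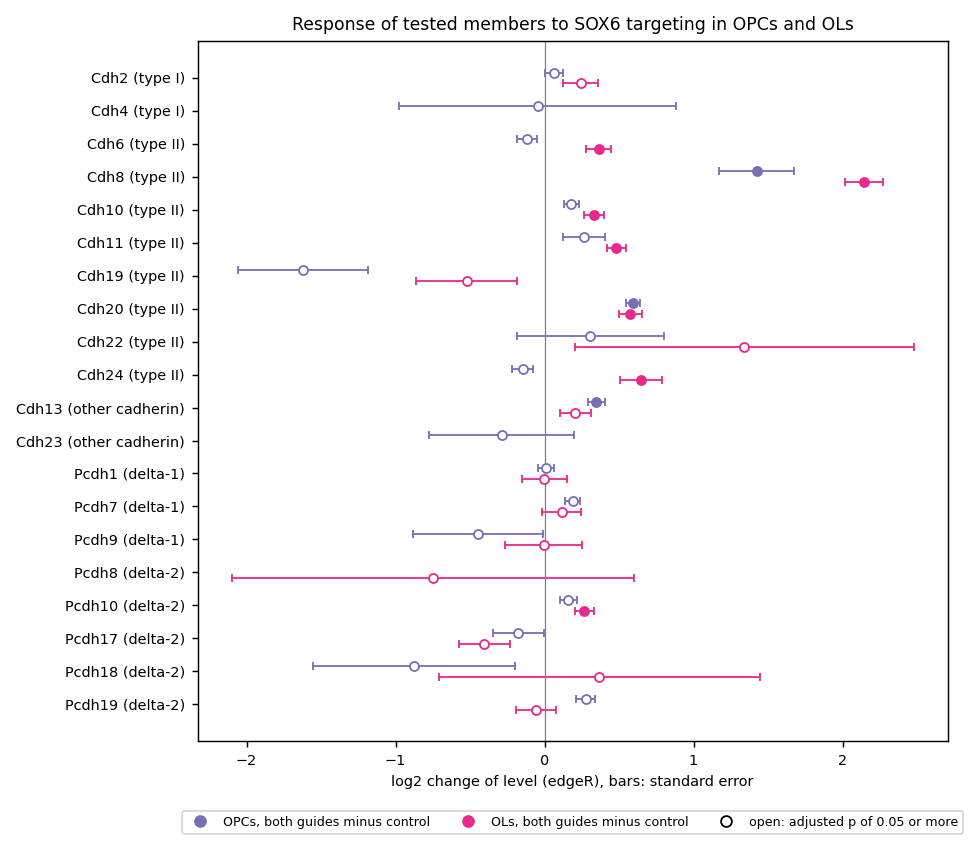
For each tested gene, ordered by class, the horizontal axis is the log2 change (both guides minus control, edgeR) in OPCs and in OLs, bars are the standard error, and filled points are called. Cdh8 lies far to the right in both stages (1.42 and 2.14); Cdh24 and Cdh6 lie right of 0 and filled in OLs, and left of 0 and open in OPCs; the widest bars belong to low genes such as Cdh4, Cdh22, Pcdh8 and Pcdh18.

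The responses of the stages were compared with an interaction term in a joint fit. Of 21 members tested, 2 were called, both with a larger response in OLs: Cdh24 (log2 0.82, SE 0.16, adjusted p = 0.0209) and Cdh6 (log2 0.50, SE 0.10, adjusted p = 0.0239). Over all 14352 genes, 1.69% were called and 0.92% in that direction. For Cdh8 the OL response was larger by 0.74 log2 (SE 0.24), which was not called (adjusted p = 0.19). The Cdh24 call was lost without OPC control library A or B, OPC guide 1 library A or B, or OL control library A or B, and without OPC control libraries A and C together (adjusted p up to 0.233), and the Cdh6 call was kept in 10 of 23 alternatives.

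The guides were also tested one by one. In OPCs guide 1 gave calls for Cdh20 (log2 0.61) and Cdh8 (1.64), with 2.78% of all genes called, and guide 2 for Cdh20 (0.58) and Cdh13 (0.40), with 2.04% called. In OLs guide 1 gave Cdh8 (log2 2.08), Cdh24 (0.76), Cdh20 (0.52), Cdh11 (0.46) and Cdh10 (0.37), with 4.92% of all genes called. Guide 2 gave Cdh8 (2.21), Cdh20 (0.63), Cdh11 (0.50) and Pcdh10 (0.32), with 4.44% called. Both guides share the control libraries. Between guide 2 and guide 1, edgeR called 0 members and 0 genes in all in either stage, and DESeq2 called 0 members among 112 genes in OPCs and 29 in OLs. At an unadjusted p under 0.05 there were 2 members in OPCs, Cdh6 (log2 -0.29) and Pcdh7 (-0.15), and 1 in OLs, Cdh22.

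In the authors' deposited table of the same comparison 4 members were called in OPCs, where 4.51% of all 13541 genes were called, and 6 in OLs, where 7.46% of 13344 were called. In the authors' deposited table for OPCs (control over targeted) Cdh8 had a log2 value of -1.47, Cdh20 -0.59 and Cdh13 -0.37, and Cdh19 was called lower in targeted cells, at 2.10 (adjusted p = 0.00372). In the authors' deposited table for OLs the called members were Cdh8 at -2.21, Cdh24 -0.67, Cdh20 -0.58, Cdh11 -0.46, Cdh6 -0.37 and Cdh10 -0.35, while Pcdh10 was not called (adjusted p = 0.474).

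Other markers moved beside these genes. Of 12 progenitor markers 8 fell in targeted OLs, among them Neu4 (log2 -1.96) and C1ql1 (-1.75), with sums of 11980 to 12141 CPM in controls and 9893 to 12400 CPM in targeted libraries. From control OPCs to control OLs 9 of these 12 rose and 3 fell, and in sorted OLs 6 rose and 5 fell. In these data the list therefore does not set progenitors apart from OLs. Of 9 markers of newly formed oligodendrocytes tested, 3 fell (Gpr17, Bcas1 and Nkx2-2), and the 10 on the list summed to 3786 to 3816 CPM in controls and 1847 to 2208 CPM in targeted libraries. Of 12 cell cycle genes, 9 fell in targeted OLs, and their summed level was 680.3 to 687 CPM in controls and 373 to 474 CPM in targeted libraries. Of 13 astrocyte markers tested, 2 rose there, Aldoc and Ttyh1, and the 14 markers summed to 8246 to 8576 CPM in controls and 9551 to 11084 CPM in targeted libraries; Gjb6 was at most 0.606 CPM. Of 13 neuron markers tested, 3 fell (Nefl, Nefm and Rbfox3), with sums of 2498 to 2603 and 1184 to 2366 CPM, and Slc17a7 was at most 0.361 CPM in any library of the set. Of 10 myelin markers tested 5 rose, with sums of 2038 to 2238 and 2544 to 3000.4 CPM. In OPCs 3 of 13 astrocyte markers rose and Sox9 fell, with sums of 1814 to 2017 CPM in controls and 2007 to 2281 CPM in targeted libraries. Also in OPCs, 4 of 12 progenitor markers fell (C1ql1, Tnr, Sox10 and Lhfpl3), with sums of 9840 to 10857 and 10435 to 10967 CPM. Of 13 neuron markers there 4 fell and 1 rose, with sums of 1312 to 1623 and 1203 to 1364 CPM. Of 8 myelin markers 3 rose, with sums of 139 to 172 and 194 to 234 CPM, and of 12 cell cycle genes 2 fell, with sums of 4022.5 to 4503 and 3108.5 to 4190.1 CPM. The part of these markers' cells in the cadherin values was not tested.

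The change from control OPCs to control OLs re-ordered the family. Of 21 members tested, 11 were called, 7 higher and 4 lower in OLs, beside 43% of all genes called (21.4% higher and 21.6% lower). The median change of members was 0.21 log2, and 0.02 over all genes. All OL libraries were above all OPC libraries for 9 members, against 29.7% of all genes, and below for 4, against 29%. All 12 cell cycle genes fell and 10 of 13 astrocyte markers rose in the same comparison (summed 1814 to 2017 CPM in control OPCs and 8246 to 8576 CPM in control OLs), 8 of 14 neuron markers rose (summed 1312 to 1623 and 2498 to 2603 CPM), and their part in the values below was not tested.

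Among type II cadherins, Cdh11 went from 18.3, 28.7 and 25 CPM to 172, 155 and 158 CPM, a 6.73-fold rise (log2 2.75, SE 0.12, adjusted p = 2.67e-10). Cdh8 rose 3.23-fold from OPCs to OLs without any targeting (log2 1.69, SE 0.20, adjusted p = 7.51e-06). Both genes were higher in OLs, and both rose further with the SOX6 guides there. Cdh24 fell by 0.73 on the log2 scale (SE 0.13, adjusted p = 0.000383), from 28.5, 26.5 and 25.8 to 13.6, 15.1 and 20 CPM. In targeted OLs its level of 20.7 to 29.6 CPM overlapped that of targeted OPCs, 21.4 to 25.5 CPM. Cdh22 went from 48.5, 34.9 and 47.3 counts to 4.66, 5.76 and 0 counts (log2 -3.66, adjusted p = 0.00777). Cdh20, Cdh6 and Cdh10 were not called between the stages.

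N-cadherin was the type I gene that fell, from 233, 209 and 204 CPM in control OPCs to 126, 113 and 109 CPM in control OLs (log2 -0.89, SE 0.12, adjusted p = 1.99e-05). Cdh13 was called lower by a small step (log2 -0.25, SE 0.095, adjusted p = 0.0471), and that call was kept in 6 of 23 alternatives. The protocadherins that were called all rose. Pcdh19 went from 40.5, 37.6 and 42.9 to 92.8, 94 and 96.3 CPM (log2 1.23, SE 0.13, adjusted p = 2.04e-06). Pcdh10 went from 46.8, 52 and 50.7 to 89, 84.5 and 88.5 CPM (log2 0.81, SE 0.064, adjusted p = 1.05e-07). Pcdh7 went from 109.6, 114 and 119.8 to 191, 197 and 182 CPM (log2 0.73, SE 0.12, adjusted p = 0.000138). These 3 separated fully between the stages. Pcdh17 rose from 5.73, 5.87 and 5.66 to 9.74, 9.89 and 10.2 CPM (log2 0.79), and Pcdh9, at the low end of detection, from 0.717, 1.25 and 0.708 to 2.78, 3.02 and 1.87 CPM (log2 1.51). Without OPC control libraries A and C the calls of Pcdh17, Pcdh9 and Cdh22 were lost.

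Sorted cells carried no vector and no drug, and there every tested member differed between the stages. Of the 33 genes, 14 reached 1 TPM in at least 3 of the 6 libraries and were tested with limma on log2(TPM + 1), a scale that understates the change of low genes. All 14 were called, 10 higher and 4 lower in sorted OLs, where 61% of all 11902 genes were called, 26.6% higher and 34.4% lower. Cdh4 and Pcdh17 reached the filter only through the group in which they were high, so their calls add nothing to this count. The median change was 0.78 log2 for the tested members and -0.14 for all genes, and centring each library on its median, which moved the median of all genes to -0.05, left all 14 calls and their directions. Libraries of the groups did not overlap for any of the 14, against 29.5% of genes higher and 38% lower without overlap. For Cdh4 and Pcdh17 the filter had fixed this as well. Markers of other cells moved beside them. Of 12 astrocyte markers tested 6 rose and 3 fell, and the 14 on the list summed to 630 to 719 TPM in sorted OPCs and 2379 to 4496 TPM in sorted OLs, with Gfap up to 376 TPM. All 12 cell cycle genes fell (1804 to 2132 and 146 to 185 TPM), and of 10 neuron markers tested 2 rose and 4 fell (333 to 429.6 and 437 to 493 TPM). Their part in the cadherin values was not tested.

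Of 6 type II cadherins tested, 5 rose and 1 fell in sorted OLs. Cdh11 had 6.51, 6 and 6.06 TPM in sorted OPCs and 45.8, 50.8 and 42 TPM in sorted OLs (log2 2.71, SE 0.11, adjusted p = 1.81e-06). Cdh19 had 2.95, 2.08 and 2.2 and 11.8, 14.5 and 13 TPM (log2 2.05, SE 0.17, adjusted p = 4.49e-05), while in the unsorted OL controls it stayed at 1.3, 1.1 and 0.651 TPM. Cdh20 had 25.1, 24.9 and 28.8 and 64.4, 79 and 78.6 TPM (log2 1.46, SE 0.11, adjusted p = 3.01e-05). That step was not seen between the unsorted control groups, where Cdh20 changed by 0.02 log2 (SE 0.068); the sets were normalized apart and the difference was not tested. Cdh10 had 19.1, 16.9 and 17.8 and 26.2, 32.6 and 28.5 TPM (log2 0.67). Cdh6 had 9.08, 8.76 and 7.83 and 11.2, 12.7 and 10.6 TPM (log2 0.38, adjusted p = 0.0383), and its call was kept in 3 of 9 alternatives. Cdh24 went the other way, from 7.27, 8.35 and 6.56 to 1.08, 0.807 and 1.41 TPM (log2 -2.01, SE 0.18, adjusted p = 7.93e-05).

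Cdh8 was too low for a test in sorted cells, with 0.549, 0.753 and 1.2 TPM in OPCs and 0.547, 0.609 and 0.591 TPM in OLs. The sorted groups overlapped, while the unsorted controls went from 0.513, 0.86 and 0.726 to 2.53, 2.28 and 2.82 TPM without overlap; the difference between the sets was not tested. With SOX6 guides its OL level was 11.4, 8.06 and 11.4 TPM for guide 1 and 12.3, 10.9 and 12.6 TPM for guide 2, above all sorted libraries on the authors' scale.

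Among the protocadherins, Pcdh7 had 20.1, 18.7 and 16.8 TPM in sorted OPCs and 84.5, 90.2 and 101 TPM in sorted OLs (log2 2.25, SE 0.10, adjusted p = 3.08e-06). Pcdh17 had 0.875, 0.775 and 0.613 and 6.68, 6.22 and 4.69 TPM (log2 1.96). Pcdh1 had 18.4, 16 and 23.1 and 36, 38.6 and 37.2 TPM (log2 0.94). Besides Pcdh17, whose direction the filter fixed, the 4 other tested protocadherins all rose. Pcdh19 had 4.31, 4.69 and 4.21 and 8.17, 9.63 and 9.05 TPM (log2 0.88), and Pcdh10 17.6, 18.7 and 18.1 and 29.7, 30.2 and 29.4 TPM (log2 0.68). The genes that fell, besides Cdh24, were Cdh2 with 44.6, 47.3 and 51.5 and 36.4, 35.7 and 34.3 TPM (log2 -0.42) and Cdh13 with 27.2, 24.6 and 28.7 and 13.6, 13.8 and 14.6 TPM (log2 -0.89). R-cadherin (Cdh4) had 1.44, 2.16 and 3.06 TPM in OPCs and was listed at 0 in all 3 sorted OL libraries. Its direction was fixed by the filter. Pcdh9 (0.0644 to 3.32 TPM), Pcdh8 (0 to 1.81), Pcdh18 (0 to 2.37), Cdh22 (0 to 0.318) and Cdh23 (0.0462 to 2.09) did not pass the filter.

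**Figure D4:**
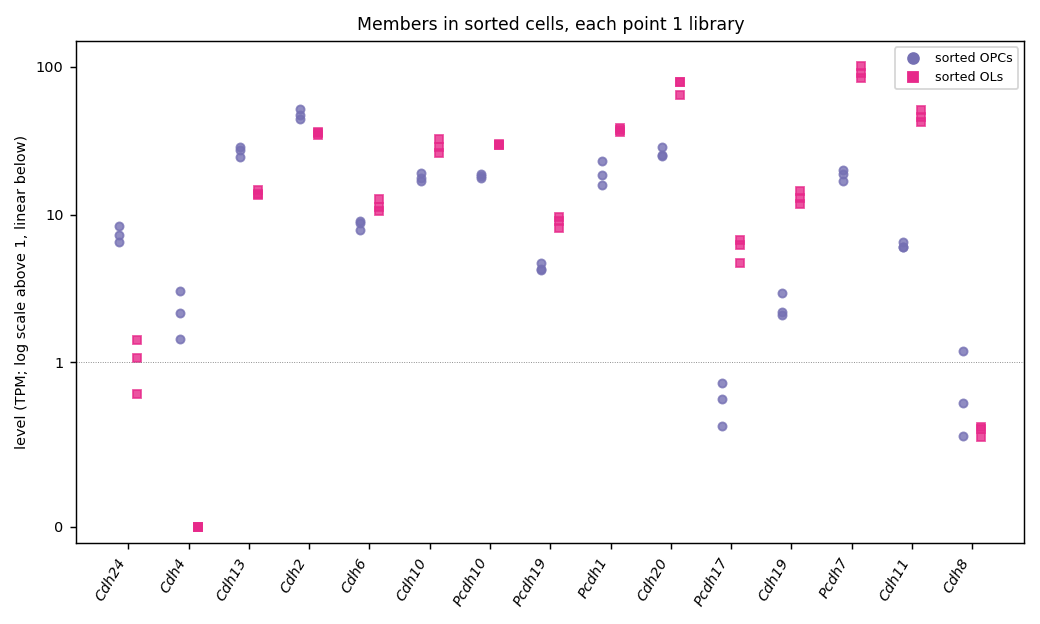
Each point is the level of 1 sorted library in TPM, for the 14 tested genes ordered by their change and for Cdh8; the vertical axis is logarithmic above 1 TPM and linear below. OPC and OL points of each tested gene are apart, from Cdh24 and Cdh4, lower in OLs, to Pcdh7 and Cdh11, higher in OLs, while Cdh8 stays near 1 TPM or below in both. The filter fixed the directions of Cdh4 and Pcdh17.

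The directions of the sorted and unsorted stage comparisons can be set side by side, as they share no library. Of 14 members tested in both, Cdh11, Pcdh7, Pcdh10 and Pcdh19 were called higher in OLs in both, as was Pcdh17, whose sorted direction the filter fixed; of all 11655 genes tested in both, 12.4% were. Cdh2, Cdh13 and Cdh24 were called lower in both, against 18.1% of all genes. Calls in opposite directions were made for 0 members and 4.39% of all genes.

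Among the intracellular partners, edgeR called 0 catenins or linkers to actin and 1 WAVE complex gene in each stage after SOX6 targeting. Of 12 catenins and linkers on a fixed list, 11 were tested in each stage, 3 in each had an unadjusted p under 0.05, and DESeq2 called 3 in OPCs and 2 in OLs. Alpha-N-catenin (Ctnna2) had a more positive response in OLs than in OPCs (edgeR interaction log2 0.51, adjusted p = 0.00453). Between control stages 3 rose and 3 fell. Ctnna2 rose from a mean of 47.6 to 177 CPM (log2 1.90) and Ctnnal1 from 2.79 to 7.94 CPM (log2 1.51), while Pkp4 (log2 -0.89) and afadin (Afdn, log2 -0.63) fell. In sorted cells 4 rose and 4 fell, with Ctnnal1 (log2 3.04), Pkp4 (1.81) and Ctnna2 (1.63) higher and Afdn lower (-2.39) in OLs. Of 9 WAVE complex genes, edgeR called Wasf1 lower in targeted OLs (169.6 to 117 and 127 CPM, log2 -0.48) and Cyfip1 higher in targeted OPCs (174 to 207 and 206 CPM, log2 0.27). DESeq2 called Wasf1 in OLs, and both Wasf1 and Cyfip1 in OPCs, 1 lower and 1 higher. At an unadjusted p under 0.05 in edgeR there were 3 of the 9 in OPCs and 1 in OLs.

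Other surface families were tested as well. Of 13 large or desmosomal cadherin superfamily genes tested in OPCs, Dsc1 rose (log2 0.98) and Celsr3 fell (log2 -0.94) by edgeR. There 7 of the 13 had an unadjusted p under 0.05, and DESeq2 called 4 (Celsr3, Clstn2, Dsc1 and Fat3). Of 12 in OLs 0 were called by edgeR or DESeq2, with 1 at an unadjusted p under 0.05. In sorted OLs 5 of 8 of these fell and 0 rose, led by Fat3 (log2 -1.87) and Celsr1 (-1.23). Of 8 genes for cadherin cleavage 0 were called after targeting by edgeR or DESeq2 in either stage, and 0 had an unadjusted p under 0.05. Nectin1 fell in targeted OPCs (log2 -0.31).

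Several members lie side by side in the genome (GRCm38, GENCODE M21). Cdh8 and Cdh11, both called higher in targeted OLs, are neighbours on chromosome 8 with a gap of 3.22 Mb and 0 protein-coding genes between them. On chromosome 15, Cdh6, Cdh9, Cdh10, Cdh12 and Cdh18 follow each other with 0 protein-coding genes between. Of these 5, Cdh6 and Cdh10 were expressed and called in targeted OLs, and Cdh9, Cdh12 and Cdh18 had at most 4 counts in any library. On chromosome 1, Cdh7 and Cdh19 are neighbours, with Cdh20 a further 4.99 Mb and 20 protein-coding genes away. In the SOX6 set Cdh20 was abundant, Cdh19 low and Cdh7 at 0, while Cdh19 had 11.8 to 14.5 TPM in sorted OLs. The genes are long: the median length of all 33 was 106 kb, against 17.4 kb over 21951 protein-coding genes. The 3 called in OPCs measured 227 to 1041 kb, and the 7 called in OLs 10.1 to 392 kb.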

How the data were processed

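The submitters' processing notes name Salmon 0.14.1, DESeq2 (version not given here) and the build mm10. For the 17 libraries of the SOX6 set the authors deposited estimated counts by gene symbol, and TPM was deposited for all libraries. Further deposited tables hold the authors' log2 ratio of control to targeted cells and its p-value after adjustment. The depth behind the sorted TPM values is unknown. Libraries were made from poly(A) RNA with an unstranded kit, per the labels.

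Estimated counts were rounded, filtered with filterByExpr (minimum count 10, minimum total 15), scaled by TMM and tested with edgeR 4.0.16 in R 4.3.3 (quasi-likelihood, two-sided, Benjamini-Hochberg over all genes tested, threshold 0.05), each stage alone, with the stages together for the interaction and the stage contrast. For the sorted cells, limma 3.58.1 was run on log2(TPM + 1) for genes of at least 1 TPM in at least 3 of the 6 libraries. The scripts were tested on simulated data. Members past the threshold in any comparison, and Cdh8, were named with every library's value, and the rest with a range; of other lists up to 4 called genes with the largest change were named. The members and lists were chosen with earlier results of these data known. Promoter windows and gene positions came from RefSeq (GRCm38.p6) and GENCODE M21. Alternatives were other scalings, no filter, a transcript length offset, DESeq2 1.42.0, a joint fit, another pseudocount, and leaving out libraries.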

Additional observations from a re-analysis of the deposited data

Results flagged for a closer look

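The response to SOX6 targeting differed between OLs and OPCs, by a test of that difference in edgeR, for Cdh24 (log2 0.82 more in OLs, SE 0.16, adjusted p = 0.0209) and Cdh6 (log2 0.50 more, SE 0.10, adjusted p = 0.0239). In both genes the fitted change was above 0 in OLs and below 0 in OPCs, and neither OPC change was called. Neither difference between the stages was called without OPC control library B, or without OL control library A or B. In TPM the control and targeted libraries of Cdh24 overlapped in both stages, and those of Cdh6 overlapped in OLs.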

How the results depend on the processing

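The count of called members moved by over 1.5 times in 4 of 15 alternatives for OPCs, 8 of 15 for OLs, 14 of 23 for the difference between stages, 1 of 23 for the control stages and 0 of 9 for sorted cells. Percentages in brackets below are the share of all genes called, and ranges for leaving out 1 library cover fits that kept at least 2 libraries per group. In OPCs (3 called, 3.59%) DESeq2 gave 6 (6.11%), and leaving out 1 library gave 2 to 5 (1.39% to 4.15%). In OLs (7, 6.5%) library totals gave 4 (6.45%), and leaving out 1 library gave 3 to 9 (2.56% to 16.9%). For the difference between stages (2, 1.69%) library totals and the transcript length offset each gave 1 (1.72% and 0.704%). Leaving out 1 library gave 0 to 2 there (0.79% to 4.46%). For control OLs against control OPCs (11, 43%) leaving out 1 library gave 10 to 12 (36.8% to 52.4%). For sorted cells (14, 61%) it gave 12 to 13 (53.4% to 58.6%). Leaving out OPC control libraries A and C together, chosen after seeing the data, gave 0 for the difference between stages and 7 for the control stages. Causes were not tested. Over all genes, DESeq2 called 816 in OPCs against 479, and 1500 in OLs against 874; the length offset called 239 in OPCs and 101 against 243 for the difference between stages; the joint fit called 254 in OPCs and 1604 in OLs. Single-gene values were followed only for members called in that comparison, with all libraries or in an alternative, and for Cdh8. Of these values, for genes tested with all libraries, 617 kept their side of the threshold, 87 lost a call, 9 gained one and 0 changed sign. Members never called were left out, so the last count says nothing about them. No paired analysis was possible because the columns of the tables carry letters, not the replicate numbers of the labels; that alternative was not run. In low genes counts limit precision: 3 counts are 0.229 CPM in the smallest library.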
